A study of Mus musculus with 17 samples.

Results

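The proteasome genes of the mouse testis were followed through wildtype testis and 3 regions of testes that lack *Inha* and carry tumours. Members were all genes of the count table whose symbol is Psm, a letter from a to g and a number, with no pseudogene mark, apart from *Psmb8* and *Psmb9*. The rule took 47 of 23362 genes. Of these, 46 encode a subunit, an assembly chaperone, an activator or an inhibitor of the proteasome. The remaining gene, *Psmc3ip*, was taken by its symbol alone, since it encodes HOP2, a factor of meiotic recombination. RNA came from C57/Bl6 mice labelled postnatal day 48 to 52 (day 53 to 55 in the protocol): 3 *Inha* WT animals (79783, 79811 and 79852, testis tubules) and 3 *Inha* KO animals (79781, 79813 and 79853), each of which gave 'normal' tubules far from any tumour (N), tubules associated with a tumour (TAT), and the tumour itself (TM). The *Inha* KO is a conventional knockout that is not driven in a single cell type, the sources do not give which exons it removes, and no other allele or agent is named. Tumour and tumour associated tubules were told from 'normal' tubules by their blood vessels. KO animal 79813 gave 2 N, 2 TAT and 4 TM libraries from its 2 testes, which were summed by region, so that each group held 3 animals.

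The proteasome is the protease that degrades proteins tagged with ubiquitin. Its core particle, 20S, is a barrel of outer alpha rings and inner beta rings, and 3 of the beta subunits cut peptide bonds. The 19S particle caps the barrel, binds ubiquitin chains, removes them and unfolds the substrate with a ring of ATPases. Other caps and alternative subunits change what the barrel does. Interferon induces the immunoproteasome subunits and the PA28 activator encoded by *Psme1* and *Psme2*, and male germ cells use the alpha subunit encoded by *Psma8* and the activator encoded by *Psme4* in meiosis and in the removal of histones from spermatids.

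Summed libraries held 6349355 (WT 79783) to 65236050 counts (TM of 79813). *Inha* itself was at 54.7, 75.6 and 66.2 CPM in WT testis and between 0.553 and 5.88 CPM in the 9 KO libraries. Values are TMM-normalised CPM, which set the counts of a gene against the total of its library scaled by its TMM factor, given in the order of the animals above. Shallow WT 79783 was the lowest of the WT animals for 39 of the 47 members and the highest for 2. The summed level of 12 spermatid markers was 23857 to 36465 CPM over WT libraries, 20532 to 28239 CPM over N, 4323 to 11673 CPM over TAT and 524 to 3032 CPM over TM. For 12 spermatocyte markers the same ranges were 7453 to 10940, 8487 to 10320, 4448 to 7789 and 384 to 2380 CPM. Red blood cell genes summed to 397 to 496 CPM in WT testis and 16469 to 54904 CPM in TM, and interferon-induced genes to 59.4 to 86.1 and 479 to 602 CPM. Sertoli markers, which mark the lineage the tumours are ascribed to, summed to 955 to 2044 CPM in WT testis, 3521 to 4048 CPM in TAT and 3247 to 3485 CPM in TM. In TM against WT, 2 of the 9 were called higher and 2 lower. Their median log2 fold change was -0.02, with 4 above 0 and 5 below, so the list as a whole did not share the higher sum. No marker of these lists was at 0 in a whole group. In such bulk tissue, fewer cells of a type and less RNA per cell cannot be told apart, and the part of cell makeup in the differences between regions was not tested.

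Proteasome genes took a larger share of all counts in tumour than in WT in every animal, given as a description without a test, and the core particle held most of the difference. All 47 members together made up 0.705 to 0.790% of counts in WT. In N they held 0.821 to 0.862%, in TAT 0.910 to 1.05% and in TM 1.07 to 1.21%. The 14 constitutive 20S subunits held 0.227, 0.270 and 0.253% in WT and 0.688, 0.558 and 0.676% in TM. By contrast the 17 subunits of the 19S particle whose symbols fit the rule held 0.370 to 0.399% in WT and 0.388 to 0.422% in TM. Among the 20S subunits *Psma7* had the highest mean level in TM, 1537 CPM, beside 209 CPM in WT. The shares are of raw totals, without TMM. Scaled so, the median log2 fold change of all genes in TM against WT was 0.25, beside -0.07 with TMM. Part of the larger share is thus common to many genes.

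**Figure D1:**
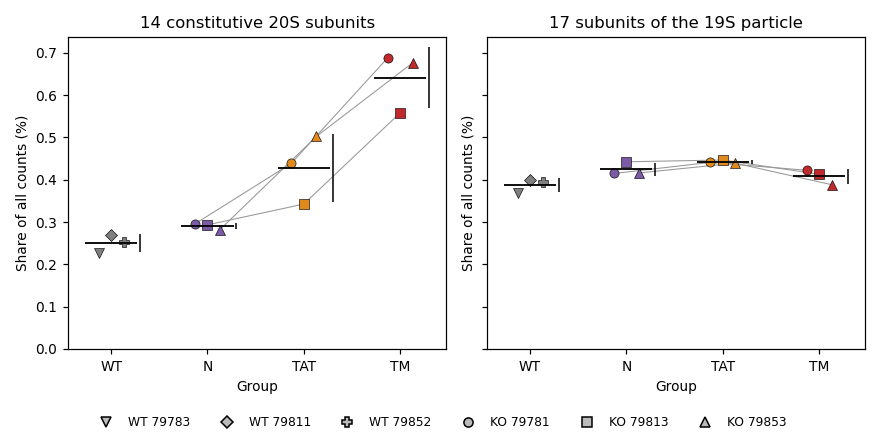
Share of all counts (%) held by the 14 constitutive 20S subunits (left) and by the 17 members that are 19S subunits (right) in each summed library. Each symbol is an animal, grey lines join the regions of a KO animal, and bars give the mean and SD of 3 animals. The 20S share of every TM library, 0.558% or more, lies above the highest WT value, 0.270%, while the 19S shares of WT (0.370 to 0.399%) and TM (0.388 to 0.422%) overlap.

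In TM, 24 members rose and 9 fell against WT, by edgeR's quasi-likelihood test over all 19791 genes tested (adjusted p under 0.05 and a fold above 1.5), and the other 14 were not called. In percent, 51.1% of the members rose and 19.1% fell, beside 27.8% of all genes tested that rose and 30.6% that fell. The median log2 fold change was 0.66 over the members and -0.07 over all genes. In TAT 15 members rose (31.9%, beside 14.4% of all genes) and 5 fell (10.6%, beside 4.61%), with a median of 0.40 against 0.07. In N no member was called in either direction, where 0.0202% of all genes rose and 0.0202% fell. 5 members had an unadjusted p under 0.05 in N, beside 1502 of all 19791 genes, and neither DESeq2 nor limma-voom called any member. All 47 members passed the filter on low counts, *Psme2b* only through 3 TAT and TM libraries. Comparisons with WT share the WT libraries, so their values are not independent of each other.

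Without WT 79783, 21 members rose and 11 fell in TM (24.9 and 28.4% of all genes did), and 30 of the 33 calls remained. The calls lost were *Psma3*, *Psmd3* and *Psmd10*. TAT calls depended more on single animals, among all genes as among the members. Without WT 79783, 8 members rose and 3 fell in TAT, beside 10.9 and 2.0% of all genes. Without WT 79852 these were 7 and 3 members, beside 8.5 and 1.96% of all genes, and without KO 79853 they were 6 and 3, beside 8.79 and 2.75%. Leaving out KO 79781 gave 4 and 0 members, beside 3.45 and 0.278% of all genes. The 4 calls that remained without KO 79781 were *Psma7*, *Psmg3*, *Psme1* and *Psme2*. Scaling moved the TAT split as well, which held 8 rises and 5 falls under RLE size factors (12.7 and 9.05% of all genes) and 23 rises and 4 falls under total library size (21.3 and 2.94% of all genes).

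**Figure D2:**
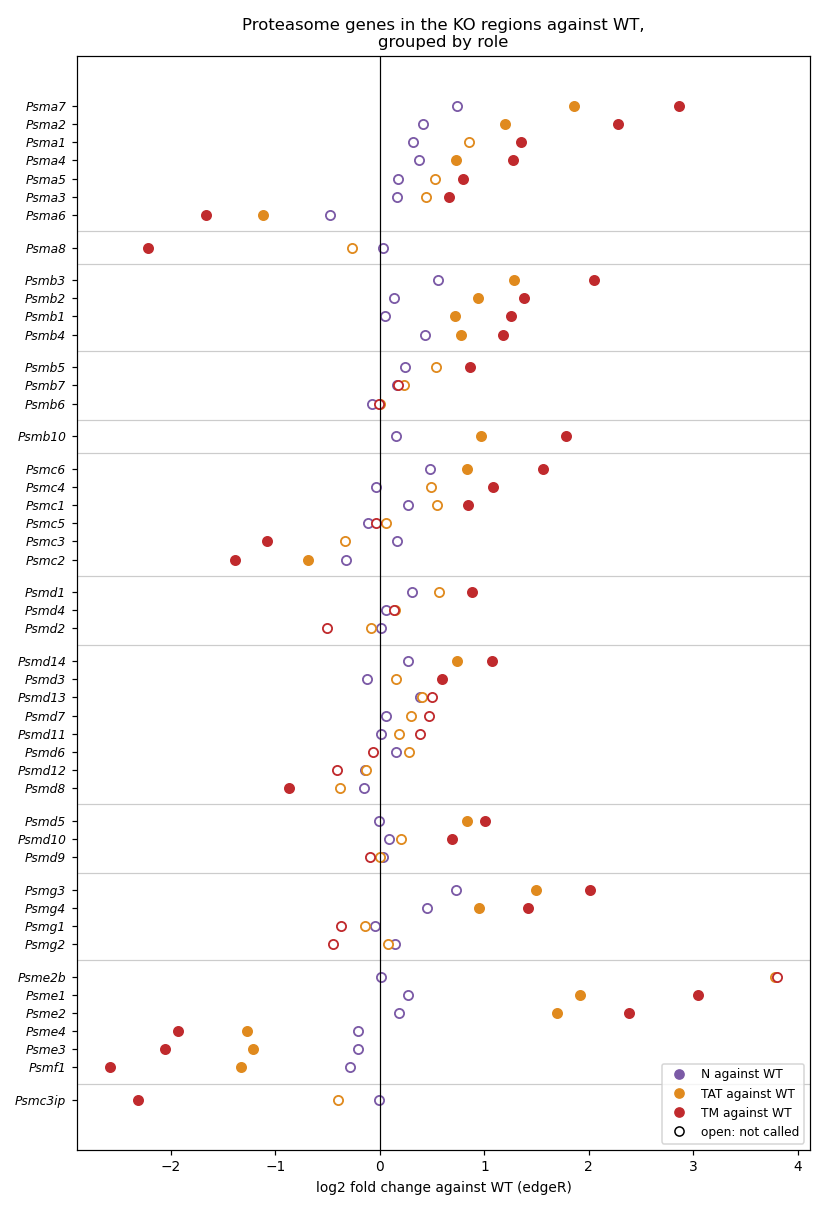
Log2 fold change against WT (edgeR) of the 47 members in N, TAT and TM, in blocks by role from the alpha ring at the top to *Psmc3ip* at the bottom. Filled points passed an adjusted p under 0.05 and a fold above 1.5, and open points did not. N lies near 0 for most genes, and TM extends from -2.58 (*Psmf1*) to 3.05 (*Psme1*) among the called genes.

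The alpha ring did not move as one. Of its 7 constitutive members, 6 rose and 1 fell in TM, with a median log2 fold change of 1.27. *Psma7* encodes the subunit that *Psma8* stands in for in germ cells (chromosome 2, 180036374 to 180042433 of GRCm38). It was at 118, 264 and 246 CPM in WT testis, 363, 369 and 359 CPM in N tubules, 739, 518 and 886 CPM in the TAT and 1734, 1131 and 1745 CPM in TM. Every N library was above every WT library, and each further region was above the one before it in all 3 KO animals. Its rise was 7.26-fold in TM (log2 fold change 2.86 ± 0.29 (SE), adjusted p = 3.59e-05) and was also called in TAT (log2 fold change 1.85 ± 0.28 (SE), adjusted p = 0.00169). In N its log2 fold change was 0.74 ± 0.27 (SE), with an adjusted p of 0.537.

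*Psma6*, a constitutive subunit of the same ring (chromosome 12, 55384222 to 55418454), went the other way. Its level was 683, 869.8 and 863 CPM in WT testis and 665, 610.3 and 559.8 CPM in N tubules, against 364, 428 and 288 CPM in the TAT and 248, 272 and 243 CPM in TM. All TAT and TM libraries were below all WT and N libraries (log2 fold change -1.67 ± 0.22 (SE), adjusted p = 9.97e-05 for TM, -1.12 ± 0.21 (SE) for TAT, adjusted p = 0.00461). *Psma2*, *Psma1*, *Psma4*, *Psma5* and *Psma3*, the other parts of the ring, rose in TM with log2 fold changes of 2.28, 1.35, 1.27, 0.79 and 0.66, and of these *Psma2* and *Psma4* also rose in TAT.

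*Psma8*, the germ cell subunit (chromosome 18, 14706151 to 14762301), was called lower in the tumour and in neither kind of tubule. WT libraries held 89.5, 154 and 140.3 CPM and N libraries 107, 169 and 136 CPM, and these ranges overlap. TAT held 83.1, 147 and 77.9 CPM, which overlaps both, and TM held 15.5, 47.8 and 12.6 CPM, below every other library. In TM it fell 4.66-fold against WT (log2 fold change -2.22 ± 0.51 (SE), adjusted p = 0.00281), and it also fell against TAT of the same animals (log2 fold change -2.18 ± 0.38 (SE), adjusted p = 0.0164). Its log2 fold change in TAT against WT was -0.27 ± 0.49 (SE), adjusted p = 0.726, and 0.03 ± 0.49 (SE), adjusted p = 1.00, in N. These small values turn sign under some scalings, to 0.01 in TAT with total library size and to -0.02 in N with RLE size factors. *Psmc3ip*, the meiotic gene taken by its symbol, had the same order: 206, 317 and 246 CPM in WT testis, 263, 307 and 238 in N, 179, 232 and 152 in TAT and 45.3, 77.9 and 24.2 in TM (log2 fold change -2.31 ± 0.41 (SE), adjusted p = 0.000532). TM of KO 79813 kept the most of both genes, and it also held the most spermatocyte markers, 2380 CPM against 816 and 384 CPM in TM of the other KO animals. All 12 spermatocyte markers fell in TM against WT and 0 of 12 in TAT, and their part in the levels of *Psma8* and *Psmc3ip* was not tested.

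**Figure D3:**
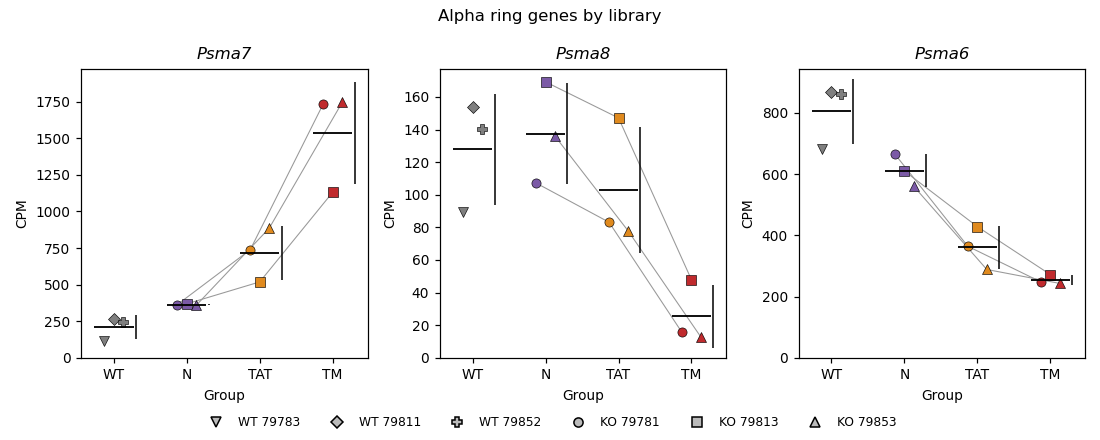
Level (CPM, linear axes from 0) of *Psma7*, *Psma8* and *Psma6* in each summed library. Symbols are animals, grey lines join the regions of a KO animal, and bars give the mean and SD of 3 animals. *Psma7* climbs to 1131 CPM or more in TM, *Psma8* drops to 47.8 CPM or less in TM after overlapping levels in WT, N and TAT, and *Psma6* lies at 428 CPM or less in TAT and TM and at 560 CPM or more in WT and N.

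Within a library, the balance between the germ cell subunit and its counterpart was below that of every WT animal in each KO region. The log2 ratio of *Psma8* to *Psma7* counts does not depend on library scaling, and it is not corrected for gene length, so only its change can be read. It was -0.39, -0.78 and -0.81 in WT, -1.76, -1.12 and -1.40 in N, -3.15, -1.82 and -3.51 in TAT and -6.80, -4.56 and -7.11 in TM. Mean differences from WT were -0.77 in N, -2.16 in TAT and -5.50 in TM, each with p = 0.1 by a two-sided exact permutation test of 3 against 3 animals. That is the smallest p this design allows, and adjusted over the 9 ratio tests it is 0.18.

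All 4 non-catalytic subunits of the beta ring, *Psmb1*, *Psmb2*, *Psmb3* and *Psmb4*, rose in both TAT and TM, with a median log2 fold change of 0.86 and 1.32. *Psmb3* rose the most of these, from 135, 291 and 193 CPM in WT testis to 335, 339 and 277 CPM in N tubules, 453, 387 and 597 CPM in the TAT and 925, 698 and 962 CPM in TM (log2 fold change 2.05 ± 0.26 (SE), adjusted p = 8.54e-05). *Psmb4* rose the least, from 84.3, 147 and 104 CPM in WT testis through 141, 182 and 153 in N and 189, 161 and 199.8 in TAT to 219, 218 and 335 CPM in TM (log2 fold change 1.18 ± 0.22 (SE), adjusted p = 0.000861). Neither overlapped WT in TAT or TM. The call of *Psmb4* in TAT was lost with RLE size factors (adjusted p = 0.0610). It held under 8 of 14 alternatives, and was lost in 4 of the 6 fits that left out an animal.

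Among the 3 constitutive catalytic subunits, only *Psmb5*, which carries the chymotrypsin-like activity, was called. It was at 46.2, 96.2 and 83.7 CPM in WT testis, 96.1, 101 and 82 CPM in N tubules, 100.2, 101 and 111 CPM in the TAT and 123, 111 and 185 CPM in TM (log2 fold change 0.87 ± 0.23 (SE), adjusted p = 0.00667). TM lay above WT in all animals, though WT 79783 was far below the other WT animals. *Psmb6*, the caspase-like subunit, showed 397, 625 and 495 CPM in WT testis, 491, 565 and 464 CPM in N tubules, 505, 476 and 478 CPM in the TAT and 512, 467 and 548 CPM in TM, overlapping throughout (log2 fold change in TM -0.01 ± 0.18 (SE), 0.33 with total library size). *Psmb7*, the trypsin-like subunit, ranged over 17.3, 17.8 and 18.2 CPM in WT testis, 18.3, 22.4 and 22.9 CPM in N tubules, 20.3, 18.6 and 21.9 CPM in the TAT and 20.1, 17.2 and 24.8 CPM in TM (log2 fold change 0.17 ± 0.22 (SE), adjusted p = 0.510).

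*Psmb10*, the alternative subunit that replaces that of *Psmb7* in the immunoproteasome, rose where its counterpart was not called. Its levels were 9.06, 14.6 and 14.4 CPM in WT testis, 16.4, 13.4 and 14.7 CPM in N tubules, 21.9, 15.8 and 33.6 CPM in the TAT and 47.4, 32.7 and 54.6 CPM in TM. TM was above all WT and N libraries (log2 fold change 1.78 ± 0.30 (SE), adjusted p = 0.000385). The call in TAT (log2 fold change 0.97 ± 0.29 (SE), adjusted p = 0.0378) was lost with limma-voom (adjusted p = 0.105) and with RLE size factors (adjusted p = 0.0728). It held under only 6 of 14 alternatives, and was lost in 5 of the 6 fits that left out an animal. The log2 ratio of *Psmb10* to *Psmb7* was -0.93, -0.29 and -0.34 in WT, -0.16, -0.74 and -0.63 in N, 0.11, -0.23 and 0.62 in TAT and 1.24, 0.93 and 1.14 in TM. TAT and TM did not overlap WT, with mean differences of 0.68 and 1.62 (two-sided exact permutation p = 0.1 for each, 0.18 adjusted over 9 tests). The other immunoproteasome subunits moved further: *Psmb8* went from 3.22, 3.89 and 2.51 CPM in WT testis to 42.2, 32.5 and 70.0 CPM in TM (log2 fold change 3.85 ± 0.42 (SE), adjusted p = 4.29e-05), and *Psmb9* from 0, 3.79 and 0.737 to 12.6, 12 and 25.2 CPM (log2 fold change 3.37 ± 0.95 (SE), adjusted p = 0.00927). Beside them, 7 of 10 interferon-induced genes and 6 of 8 macrophage and leukocyte markers rose in TM, and the latter summed to 36.8 to 43.8 CPM in WT testis and 95 to 208 CPM in TM. Their part in these rises was not tested.

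The activators did not share a direction, and the inhibitor fell. The PA28 activator genes rose. *Psme1* was at 9.67, 17.5 and 17.5 CPM in WT testis, 20.9, 19.9 and 15.9 CPM in N tubules, 61.2, 36.5 and 63.2 CPM in the TAT and 105, 101 and 172 CPM in TM. It had the largest called rise of the members, 8.27-fold in TM (log2 fold change 3.05 ± 0.30 (SE), adjusted p = 3.41e-05), and rose in TAT too (log2 fold change 1.91 ± 0.29 (SE), adjusted p = 0.00169). *Psme2*, its partner, was at 35.2, 43.4 and 33.7 CPM in WT testis, 41.5, 48.8 and 45.3 CPM in N tubules, 123, 72.9 and 154 CPM in the TAT and 197, 161 and 249 CPM in TM (log2 fold change 2.39 ± 0.28 (SE), adjusted p = 5.6e-05). Neither gene overlapped WT in TAT or TM.

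*Psme3*, which encodes the nuclear activator PA28 gamma, fell from 84.7, 126 and 131 CPM in WT testis and 96.4, 112 and 101 CPM in N tubules to 43.6, 67.4 and 30.9 CPM in the TAT and 21.7, 28.8 and 31.3 CPM in TM (log2 fold change -2.06 ± 0.28 (SE), adjusted p = 0.000129). *Psme4*, the activator of spermatids, also fell, from 142, 128 and 192 CPM in WT testis and 124, 119.6 and 182 CPM in N tubules to 59.6, 90.2 and 37.9 CPM in the TAT and 29.9, 44.6 and 47.8 CPM in TM (log2 fold change -1.93 ± 0.34 (SE), adjusted p = 0.000525). For both genes every TAT and TM library was below every WT library. Their log2 ratio (*Psme4* to *Psme3*) was 0.74, 0.03 and 0.56 in WT and 0.46, 0.63 and 0.61 in TM, a mean difference of 0.12 (two-sided exact permutation p = 0.8, 1.00 adjusted over 9 tests), and it overlapped WT in N and TAT as well. *Psmf1*, which encodes the inhibitor PI31, had the largest called fall of the members. It stood at 275, 408 and 388 CPM in WT testis, 325, 318 and 283 CPM in N tubules, 135, 189 and 88 CPM in the TAT and 53.6, 74.3 and 47.4 CPM in TM, 5.99-fold lower (log2 fold change -2.58 ± 0.32 (SE), adjusted p = 7.59e-05). *Psme2b*, a copy of *Psme2* with low values, was above 0 in 8 of the 12 summed libraries and reached no more than 2.16 CPM in them (TAT of KO 79853), with 3.13 CPM in a separate tumour library of KO 79813. It was at 0 to 0.147 CPM in WT testis and 0.291 to 1.37 CPM in TM. Its fitted log2 fold change of 3.80 ± 2.07 (SE) had an adjusted p of 0.129, and reads shared with *Psme2* may have been split between the genes.

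**Figure D4:**
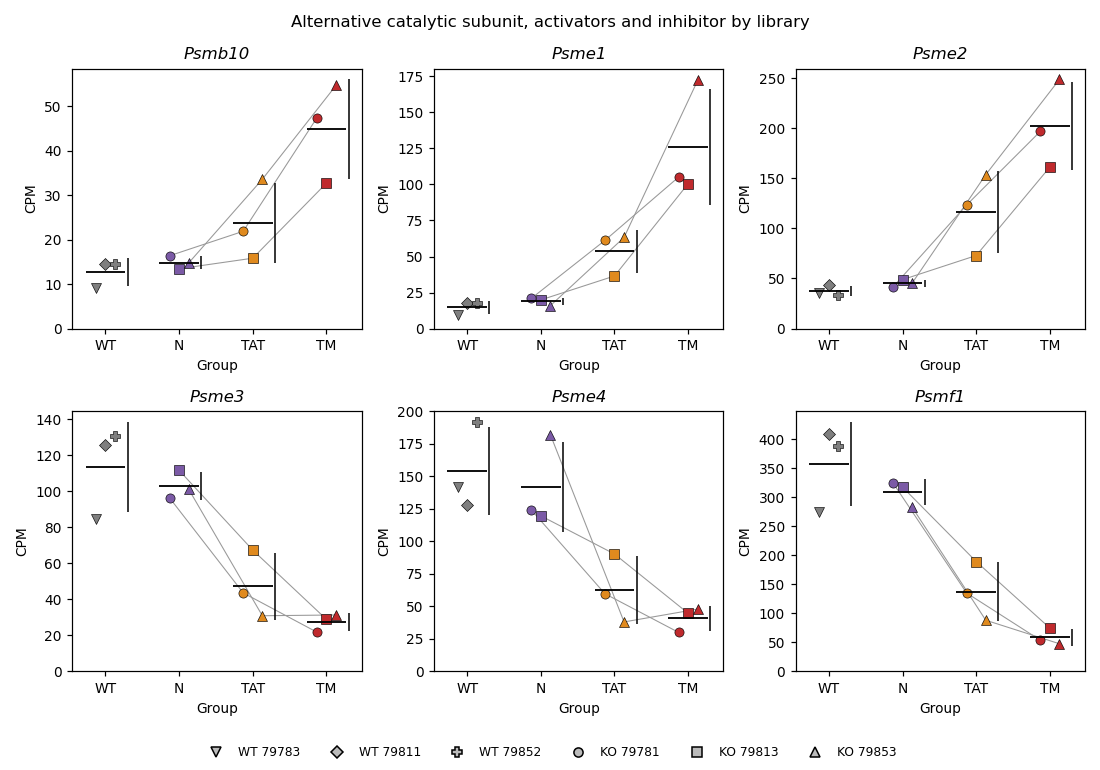
Level (CPM, linear axes from 0) of the alternative catalytic subunit *Psmb10*, the activators *Psme1*, *Psme2*, *Psme3* and *Psme4*, and the inhibitor *Psmf1* in each summed library, with the mean and SD of 3 animals. Grey lines join the regions of a KO animal. The upper row rises into TM, with *Psme1* at 101 to 172 CPM against 9.67 to 17.5 CPM in WT testis, and the lower row falls, with *Psmf1* at 47.4 to 74.3 CPM against 275 to 408 CPM.

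**Figure D5:**
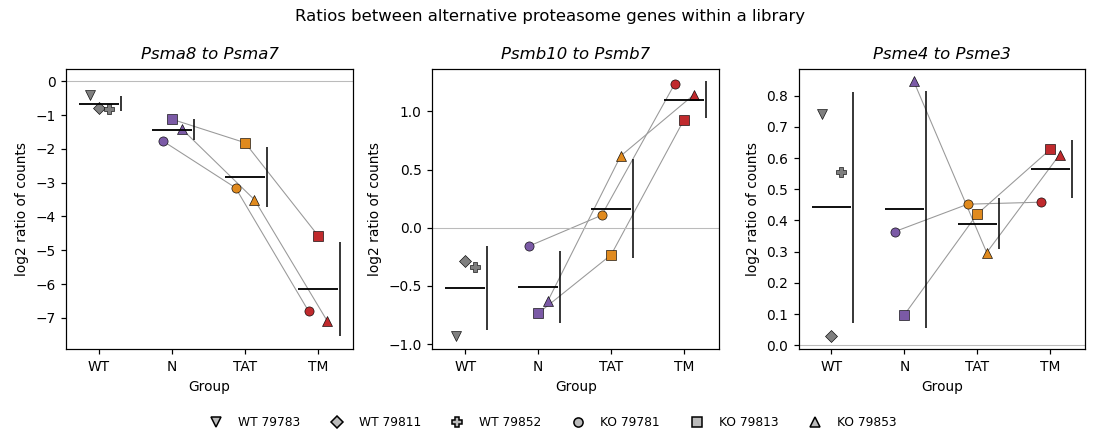
Log2 ratios of counts within each summed library for *Psma8* to *Psma7*, *Psmb10* to *Psmb7* and *Psme4* to *Psme3*, with the mean and SD of 3 animals. *Psma8* to *Psma7* falls from -0.39 or less in WT to -4.56 or less in TM, and *Psmb10* to *Psmb7* rises to 0.93 or more in TM. *Psme4* to *Psme3* overlaps WT in N, TAT and TM.

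The 19S particle showed a mixed pattern. Of its 17 subunits among the members 6 rose and 3 fell in TM, with a median log2 fold change of 0.38. Of the 14 constitutive 20S subunits 11 rose and 1 fell, with a median of 1.22. Beside both, 27.8% of all genes tested rose and 30.6% fell. Of the 6 ATPases, which unfold substrates, *Psmc6*, *Psmc4* and *Psmc1* rose and *Psmc2* and *Psmc3* fell. *Psmc6* rose the most, from 25.9, 41.2 and 32 CPM in WT testis and 43.9, 50.6 and 51.1 in N to 54, 49.4 and 66.2 in TAT and 100.2, 76 and 125 CPM in TM (log2 fold change 1.56 ± 0.21 (SE), adjusted p = 0.000118). *Psmc2* fell the most, from 697, 847 and 808 CPM in WT testis and 674, 709.7 and 607 in N to 442, 557 and 419 in TAT and 329, 303 and 274 CPM in TM (log2 fold change -1.39 ± 0.20 (SE), adjusted p = 0.000168). TM did not overlap WT for either gene. *Psmc3*, with 628, 1240 and 1018 CPM in WT testis and 449, 526 and 363 CPM in TM, fell in TM (log2 fold change -1.08 ± 0.28 (SE), adjusted p = 0.00562), a call lost without KO 79781.

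In the base, *Psmd1*, one of the large scaffold subunits, rose from 84.6, 123 and 119 CPM in WT testis, 135, 149 and 141 CPM in N tubules and 149, 145 and 172 CPM in the TAT to 189, 185 and 239 CPM in TM (log2 fold change 0.89 ± 0.19 (SE), adjusted p = 0.00154). *Psmd2*, the other scaffold, was at 294, 445 and 469 CPM in WT testis, 408, 461 and 408 CPM in N tubules, 356, 438 and 303 CPM in the TAT and 274, 274 and 306 CPM in TM. Its TM libraries overlapped WT 79783 alone, and its log2 fold change of -0.51 ± 0.20 (SE) (adjusted p = 0.0455) missed the fold threshold. Without that animal it was -0.63 and called (adjusted p = 0.0242). Of the 8 lid subunits, *Psmd14* and *Psmd3* rose and *Psmd8* fell in TM, and the log2 fold changes of the other 5 lay between -0.41 (*Psmd12*) and 0.50 (*Psmd13*). *Psmd14*, the enzyme that takes ubiquitin chains off substrates, went from 41.3, 61.5 and 48 CPM in WT testis and 55.6, 70.6 and 65.4 in N to 73.8, 77.7 and 91.1 in TAT and 118, 85.2 and 122 CPM in TM (log2 fold change 1.07 ± 0.19 (SE), adjusted p = 0.000545). *Psmd8* went from 466, 440.1 and 463 CPM in WT testis and 433, 484 and 401 in N to 320.3, 382 and 331 in TAT and 255, 255 and 253 CPM in TM (log2 fold change -0.87 ± 0.19 (SE), adjusted p = 0.00230), and with total library size it no longer passed the fold threshold (-0.55).

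The assembly chaperones split as well. Of the 20S chaperones, *Psmg3* and *Psmg4*, which work as a pair on the alpha ring, rose, and *Psmg1* and *Psmg2*, which form another pair, were not called. *Psmg3* stood at 7.52, 8.74 and 7.96 CPM in WT testis, 14.2, 16.2 and 12.2 CPM in N tubules, 23.2, 17.9 and 24.7 CPM in the TAT and 38, 29.5 and 32 CPM in TM (log2 fold change 2.01 ± 0.24 (SE), adjusted p = 7.22e-05). Each KO region lay above every WT library. *Psmg2* was at 13.7, 41.1 and 35.7 CPM in WT testis, 31.6, 42.2 and 30.4 CPM in N tubules, 26.2, 36.5 and 28.2 CPM in the TAT and 23.2, 24.8 and 16.4 CPM in TM (log2 fold change -0.45 ± 0.34 (SE)). Without WT 79783, whose level was far below the other WT animals, its log2 fold change was -0.75 and called (adjusted p = 0.0485). Of the 19S chaperones, *Psmd5* rose from 19.2, 39.7 and 39.1 CPM in WT testis and 32.9, 42.8 and 26.4 in N to 50.1, 53.9 and 62.7 in TAT and 56.5, 61.3 and 80.1 CPM in TM (log2 fold change 1.01 ± 0.26 (SE), adjusted p = 0.00556). *Psmd9* had overlapping ranges, 36.5, 56 and 58.1 CPM in WT testis, 56, 58.4 and 47.5 CPM in N tubules, 55.4, 49.7 and 40.0 CPM in the TAT and 54.8, 43.2 and 44.2 CPM in TM (log2 fold change -0.09 ± 0.21 (SE), 0.24 with total library size). *Psmd10* was called higher in TM (log2 fold change 0.69 ± 0.27 (SE), adjusted p = 0.0422) although its WT and TM libraries overlap, and the call was lost under 7 of 14 alternatives (no filter, a fit of only these groups, limma-voom, and without WT 79783, WT 79852, KO 79781 or KO 79853).

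Between regions of the same KO animals, fitted with the animal as a block over 19293 genes, 23 members rose in TM against N (48.9%, beside 24.9% of all genes) and 9 fell (19.1%, beside 28.5%). *Psma7* rose by 2.15 ± 0.22 (SE) on the log2 scale (adjusted p = 0.00109), *Psme1* by 2.81 ± 0.30 (SE) (adjusted p = 0.00109), and the log2 fold change of *Psma8* was -2.52 ± 0.39 (SE) (adjusted p = 0.00161). Against TAT, 7 members rose in TM (14.9%, beside 7.65% of all genes): *Psma2*, *Psma7*, *Psmb3*, *Psmb10*, *Psmc4*, *Psmc6* and *Psme1*. The 5 that fell (10.6%, beside 17.7%) were *Psma8*, *Psmc2*, *Psmc3*, *Psmf1* and *Psmc3ip*. *Psma8* and *Psmc3ip* had the largest of these falls, with log2 fold changes of -2.18 and -2.04. Without the animal block *Psmb10* (log2 fold change 0.84, adjusted p = 0.0742) and *Psmc3* lost their call against TAT. Without KO 79781, 8 of 32 calls remained in TM against N (5 higher and 3 lower), where the share of all genes called also went down, to 8.25 and 7.31%. In TM against TAT 0 of 12 remained without that animal, and no gene of the whole table was called (0.0% in either direction, with 4394 genes at an unadjusted p under 0.05). Without KO 79813, 7 of 12 remained in TM against TAT (2 higher and 5 lower, beside 3.09 and 17.7% of all genes), and without KO 79853 10 remained and 8 were added (13 higher and 5 lower, beside 11.9 and 15.9%).

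Between TAT and N no member was called, nor was any gene (0.0% in either direction). By edgeR 18 of 47 members had an unadjusted p under 0.05, beside 4517 of all 19293 genes. DESeq2 called 4 members higher and 5 lower, where it called 9.78 and 9.65% of all genes, so that the members' counts lay near the background. Limma-voom on the 17 libraries called 6 higher and 3 lower, beside 7.22 and 4.18% of all genes. That fit took pieces of the same animal as separate libraries, 4 for N and 4 for TAT from 3 animals each. Its calls therefore rest on more libraries than animals, unlike those of the edgeR fit, which called none. *Psma7*, *Psmb2*, *Psme1* and *Psme2* were higher and *Psmf1*, *Psme3* and *Psme4* lower by both DESeq2 and limma-voom. *Psma7* had a log2 fold change of 1.09 ± 0.21 (SE) (edgeR, adjusted p = 0.0661) and was higher in TAT in 3 of 3 animals. From N through TAT to TM, 14 of 47 members were higher at each step in all 3 KO animals, as were 15.4% of the 19293 genes, and 10 were lower at each step in all 3, as were 25.9% of the genes. Among them were *Psma7*, *Psmb3*, *Psme1* and *Psme2* of the first kind and *Psma6*, *Psma8*, *Psmc2* and *Psmf1* of the second.

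For *Psma7*, *Psma8* and *Psmf1*, the tumours of the other KO animals lay on the same side of the range formed by the tumours of KO 79813. Other members, among them *Psma6*, *Psmb3*, *Psmb10*, *Psmc3* and *Psmg4*, did the same. The share of all genes that did was not counted, so the separation cannot be read as a trait of these genes. The 4 tumour libraries of KO 79813 come from the same animal and are not independent. Scaled over the 17 separate libraries, the 4 TM libraries of KO 79813 held 1046 to 1374 CPM of *Psma7*, against 1631 and 1704 CPM in TM of the other KO animals. They held 34.8 to 67.0 CPM of *Psma8*, against 15.3 and 11.8 CPM. *Psmf1* was at 70.1 to 102 CPM in the 4 and at 52.6 and 44.3 CPM in the others. For *Psme1* the other KO animals lay on either side of the range, with 104 to 129 CPM in the 4 against 103 and 161 CPM.

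Genes that work with the proteasome were counted from a list of 34, none of them members. In TM 14 rose and 8 fell, with a median log2 fold change of 0.50. Over all genes tested, 27.8% rose and 30.6% fell, with a median of -0.07. The genes that control proteasome transcription did not share a direction, with 3 of 4 higher and 1 lower. *Nfe2l1* encodes the transcription factor that raises proteasome genes when proteasome activity runs short, and it rose from 28.1, 41.7 and 23.9 CPM in WT testis to 43.8, 44.4 and 57.7 in N, 83.7, 62.6 and 95.6 in TAT and 162, 133 and 204 CPM in TM (log2 fold change 2.38 ± 0.26 (SE), adjusted p = 4.58e-05). *Ddi2*, the protease that cuts the factor into its active form, rose from 12.3, 13.2 and 15.4 CPM in WT testis to 57.7, 43.7 and 106 CPM in TM (log2 fold change 2.27 ± 0.31 (SE), adjusted p = 0.000118). *Ngly1*, the enzyme that strips sugars from it, fell from 355, 281 and 228 CPM to 34.5, 48.1 and 17.5 CPM (log2 fold change -3.09 ± 0.43 (SE), adjusted p = 0.00014). *Akirin2*, known in human cells to carry proteasomes into the nucleus, fell from 313, 199.6 and 215 CPM to 32, 51.1 and 51.1 CPM (log2 fold change -2.48 ± 0.33 (SE), adjusted p = 0.000106). WT and TM libraries did not overlap for any of these, and the share of all genes without overlap was not counted. Others that fell were the ubiquilin *Ubqlnl* (log2 fold change -4.31), the shuttle *Rad23b* (-1.38), the polyubiquitin gene *Ubb* (-1.38), the ligase *Ube3c* (-0.85) and the deubiquitinase *Uchl5* (-0.85). All 12 spermatid markers fell in TM as well, and their part in these falls was not tested.

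The promoters of members that moved together or apart were read for motifs, as a description. RefSeq promoters (GRCm38.p6, 250 bases before to 50 after the start) were at hand for 39 members. TGACNNNGC, the core of the antioxidant response element bound by NFE2L1 and NFE2L2, was found on either strand in 6 of the 39 (15.4%), beside 14% of all 27025 genes with a promoter in the table. It lay in 2 of 21 matched members that rose in TM and in 1 of 7 that fell. CCAAT was in 13 members (33.3%, beside 41.1% of all genes), 8 of the 21 and 4 of the 7. GAAANNGAA, the core of the interferon response element, was in 7 (17.9%, beside 9.76%), 4 of the 21 and 1 of the 7 (*Psmc2*), and TTCNNNGAA, the gamma activated site, in 2 (5.13%, beside 9.55%). TGACGTCA, the full cAMP response element, which can share its first 4 letters with TGACNNNGC, was in 0 of 39 and in 2.03% of all genes. The following promoters are shown because their genes moved in opposite directions with the same letters, or carry the interferon core in the gene with the largest called rise.

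*Psma7* rose and *Psma6* fell, and both hold CCAAT, in capitals here on either strand (chr2:180042415-180042714 (minus strand) and chr12:55383972-55384271 (plus strand)), with the sequences given 5′ to 3′ along the gene.
Psma7: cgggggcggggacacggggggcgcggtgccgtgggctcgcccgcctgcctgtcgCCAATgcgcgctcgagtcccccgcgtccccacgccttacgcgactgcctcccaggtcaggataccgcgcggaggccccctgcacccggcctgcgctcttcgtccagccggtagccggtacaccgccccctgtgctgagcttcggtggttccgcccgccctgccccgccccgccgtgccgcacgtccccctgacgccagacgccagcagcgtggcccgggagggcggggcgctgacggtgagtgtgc
Psma6: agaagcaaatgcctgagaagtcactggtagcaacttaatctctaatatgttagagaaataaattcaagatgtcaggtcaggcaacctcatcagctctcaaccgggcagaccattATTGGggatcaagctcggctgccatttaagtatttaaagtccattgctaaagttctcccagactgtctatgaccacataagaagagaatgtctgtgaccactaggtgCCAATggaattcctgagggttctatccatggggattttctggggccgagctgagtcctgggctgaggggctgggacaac

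*Psmb5* rose and *Psme4* fell in TM, and both hold TGACNNNGC on either strand, in capitals here (chr14:54617946-54618245 (minus strand) and chr11:30771525-30771824 (plus strand)).
Psmb5: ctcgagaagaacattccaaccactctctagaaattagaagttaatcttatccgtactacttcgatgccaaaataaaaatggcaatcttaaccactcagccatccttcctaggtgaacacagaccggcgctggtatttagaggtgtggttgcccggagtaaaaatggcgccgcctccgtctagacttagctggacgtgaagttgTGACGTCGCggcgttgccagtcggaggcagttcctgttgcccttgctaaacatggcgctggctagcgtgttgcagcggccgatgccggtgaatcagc
Psme4: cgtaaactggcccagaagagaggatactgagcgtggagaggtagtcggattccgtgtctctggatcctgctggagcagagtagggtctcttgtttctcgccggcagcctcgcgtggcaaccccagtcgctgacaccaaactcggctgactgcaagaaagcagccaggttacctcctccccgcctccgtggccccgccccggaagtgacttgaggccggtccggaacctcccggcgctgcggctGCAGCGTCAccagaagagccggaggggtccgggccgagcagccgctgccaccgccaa

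*Psme1* holds GAAANNGAA on the strand opposite to the gene, 10 bases after the start, in capitals here (chr14:55578244-55578543 (plus strand)).
Psme1: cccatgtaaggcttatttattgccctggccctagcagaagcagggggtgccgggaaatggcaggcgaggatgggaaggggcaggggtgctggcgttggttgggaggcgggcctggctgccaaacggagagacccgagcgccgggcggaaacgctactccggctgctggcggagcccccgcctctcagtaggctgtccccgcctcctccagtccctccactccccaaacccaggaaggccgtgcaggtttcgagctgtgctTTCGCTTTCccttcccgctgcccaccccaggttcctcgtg

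Counting limits bear on some of these values. Of the 47 members, 21 had a value that was not whole in at least 1 of the 17 libraries, so that reads shared with another gene could have been split (in 16 libraries for *Psmb3*, 13 for *Psme2*, 8 for *Psma7*, 6 for *Psme1* and 0 for *Psma6*). 11 members overlap a gene on the opposite strand, among them *Psmb7* with *Nek6*, *Psmc3* with *Slc39a13*, *Psme1* with *Emc9* and *Psmc3ip* with *Mlx*, and the sources used here do not say plainly whether counting used the strand (the label of the deposited sheet ends in a cut word that may stand for forward). On the same strand 4 members, *Psma2*, *Psmd1*, *Psmd13* and *Psme2b*, overlap another gene of the count table, which no strand setting separates.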

How the data were processed

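RNA of 17 testis pieces was primed at its poly(A) tail, which added an index and a UMI, and was read on a Illumina NextSeq. The authors deposited estimated counts (expected counts) per gene from reads mapped with STAR to GRCm38 and, in the methods, quantified with Salmon. Versions in the submitters' processing notes are STAR 2.6.1d, Subread 2.0.1 (featureCounts), FastQC 0.11.9, Picard 2.23.9 and MultiQC 1.12. The sources used here do not plainly state the annotation release, the strand setting (a cut word in the sheet's label may stand for forward) or whether UMIs were collapsed, so counting error may be larger than the counts imply.

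Pieces were summed within animal and region and rounded, giving 12 libraries of separate animals or regions. Differences were tested with edgeR 4.0.16 in R 4.3.3 (TMM, filterByExpr, glmQLFit, glmQLFTest, Benjamini-Hochberg over all genes tested), and a call needed an adjusted p below 0.05 with a fold beyond 1.5. Comparisons with WT fitted the 12 libraries together. Those between regions fitted 9 KO libraries with animal as block, because the labels take the regions from the same animals. Deviations of libraries from the same animal correlated weakly (mean 0.0907, from 0.0208 to 0.334 over 9 pairs, beside -0.0452 over 18 pairs from different animals). No library copied another. Ratios used counts plus 0.5. The fits were tested on simulated data.

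Values in every library are given for *Psma8*, *Psma7*, the catalytic subunits, *Psme1* to *Psme4*, *Psmc3ip* and, in each role group, the members with the largest and smallest log2 fold change in TM against WT. Of the pathway list, the 4 genes with the smallest p and those changed against the majority are named, apart from an item that is not reported here. Members and lists were chosen with earlier results of these data known. Alternatives were DESeq2 1.42.0, limma-voom (limma 3.58.1) on 17 libraries, RLE or total library size, no filter, no fold threshold, fits of 2 groups, only testis 1 of KO 79813, no block, each animal left out and a pseudocount of 5. The limma-voom fit took pieces of the same animal and region as separate libraries.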

Additional observations from a re-analysis of the deposited data

Results flagged for a closer look

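Among 78 sets of separate libraries (the named members in the 4 N, 4 TAT and 6 TM pieces, scaled over all 17 libraries), 5 held a library far from the rest by Dixon's gap test at the 95% level, where chance gives about 1 in 20 for independent libraries. Each set holds more than 1 piece of KO 79813, and these are not independent, so that rate need not apply here. *Psmb5* was at 80.4 CPM in N of KO 79853, with the nearest other N library at 93.9 CPM. *Psmd2* was at 466 CPM in an N library of KO 79813, with the next at 401 CPM. In TM, *Psmb6* reached 565 CPM in a tumour of KO 79813 (next 516 CPM) and *Psmc2* was lowest at 256 CPM in KO 79853 (next 323 CPM). *Psme2b* was at 2.41 CPM in TAT of KO 79853, against 0.149 CPM in the next TAT library.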

How the results depend on the processing

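Counts of called members in N against WT and TM against WT moved by less than 1.5 times under every alternative. The number higher in TAT against WT, 15, was 8 with RLE size factors, 23 with total library size and 9 with no filter on low counts, and 4 to 20 (lower: 0 to 5) when an animal was left out. With no filter, 2481 of 23362 genes were higher. In TAT against N, with 0 and 0, the numbers higher and lower were 7 and 1 with total library size, 8 and 4 in a fit of only these regions, 4 and 5 with DESeq2, 6 and 3 with limma-voom, and 0 to 6 and 0 to 1 with an animal left out. Counts over the whole table moved too. With total library size, 1183 of 19293 genes were higher and 34 lower. The fit of only these regions called 2367 higher and 2167 lower of 18618 genes. Without KO 79813, 1028 of 18936 genes were higher and 368 lower. TM against N gave 5 to 23 higher and 3 to 9 lower with an animal left out. TM against TAT, with 7 higher and 5 lower, gave 13 higher in a fit of these regions only, 14 higher with DESeq2, 8 lower with only testis 1 of KO 79813, and 0 to 13 higher and 0 to 5 lower with an animal left out. Over the whole table, 2163 of 17560 genes were higher in the fit of these regions and 3132 of 19293 with DESeq2. With only testis 1 of KO 79813, 4200 of 18680 genes were lower. Without the animal block, 6 rose and 4 fell in TM against TAT (*Psmb10*: log2 fold change 0.84), 23 rose and 9 fell in TM against N and 0 in TAT against N. Among all 19293 genes, 1205 then rose and 2608 fell in TM against TAT, and 5050 rose and 5412 fell in TM against N. The cause of these moves was not tested.

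Signs turned only for values near 0. The log2 fold change of *Psmb6* in TM against WT became 0.0206 with RLE size factors, 0.33 with total library size, 0.00851 with no filter, 0.0641 in a fit of 2 groups, 0.0197 with DESeq2 and 0.0187 with limma-voom (-0.0848 to 0.10 with an animal left out), and that of *Psmd9* became 0.24 with total library size (-0.21 to 0.0182 with an animal left out). For *Psma8* it became -0.0241 with RLE size factors and -0.0237 with DESeq2 in N (-0.10 to 0.17 with an animal left out) and 0.00554 with total library size in TAT. The ratio of *Psmb10* to *Psmb7* in N against WT turned to -0.00602 with a pseudocount of 5 and spanned -0.20 to 0.12 with an animal left out, and that of *Psme4* to *Psme3* spanned -0.21 to 0.16 (N), -0.26 to 0.10 (TAT) and -0.0826 to 0.27 (TM) in the same way. Of 985 values of named members under alternatives, 873 kept direction and call, 87 lost the call, 8 gained it and 17 turned sign.

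Total library size shifted the all-gene median log2 fold change against WT by 0.13 (N), 0.28 (TAT) and 0.32 (TM), and RLE size factors by -0.13 in TAT. Precision rests on 3 animals a group, and leaving out KO 79781 cost the most member calls in TM against WT, TAT against WT, TM against N and TM against TAT.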

Other observations

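A further 4 genes of the pathway list, chosen after their values were seen, rose in TM, and their WT and TM libraries did not overlap. Of the 34 genes on that list 14 rose and 8 fell, beside 27.8 and 30.6% of all genes tested. The share of all genes without overlap was not counted. Being picked for their rise, these 4 genes do not show a joint rise of the list. *Nfe2l2*, the oxidative stress relative of *Nfe2l1*, had 4.30, 20.9 and 18.7 CPM in the WT libraries against 84.5, 75.3 and 106 CPM in TM (edgeR, log2 fold change 2.6 ± 0.42 (SE), adjusted p = 0.000335). *Pomp*, a chaperone of 20S assembly, had 187, 175 and 168 CPM in the WT libraries against 312, 292 and 377 CPM in TM (edgeR, log2 fold change 0.84 ± 0.20 (SE), adjusted p = 0.00372). *Txnl1*, a thioredoxin that binds the 19S particle, had 42.7, 32.4 and 28.3 CPM in the WT libraries against 121, 75.1 and 172 CPM in TM (edgeR, log2 fold change 1.74 ± 0.28 (SE), adjusted p = 0.000316). *Ubqln2*, a ubiquilin like *Ubqlnl*, which fell, had 3.99, 4.50 and 6.24 CPM in the WT libraries against 25.8, 21 and 26.7 CPM in TM (edgeR, log2 fold change 2.28 ± 0.33 (SE), adjusted p = 0.000164).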
